A study of Arabidopsis halleri with 24 samples.

Results

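Roots of the zinc non-accumulating bulk were compared between high-zinc and control medium on 6 of the 24 arrays of the series, 3 for each medium. The arrays were chosen by their titles, which name the bulk, the organ and the medium. The series was recorded as Arabidopsis halleri, a plant that stores zinc in its leaves, and crossed 2 bulks, an accumulating and a non-accumulating one, with organ and medium in 8 groups of 3 arrays. Such bulks are pools of segregating offspring of A. halleri and A. petraea, a relative that does not accumulate zinc; this parentage comes from background knowledge and not from the titles. The control group was non-accumulating whole roots on full mineral medium. The high-zinc group was the same organ of the same bulk with zinc given as 25 µM in the treatment label. Both were grown in a growth room at 25 °C with 10 h of light, and no label gives plant age in days or the length of the zinc treatment.

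Replicate 1 of the control group had the source name halleri where the other arrays had the name of a bulk. It was kept by its title, and the counts over all probe sets and over the main gene lists are also given without it. Whether replicates were separate plants or pools is not stated in the labels, and p-values therefore reflect array-to-array spread, which may be technical. Probes of the ATH1 array were designed on A. thaliana, so a level was compared only within a probe set, and the roles given below are those known for the A. thaliana gene. In whole roots, fewer cells of a type and less RNA per cell cannot be told apart. Markers of root and leaf went with the organ label. EXPA18, a root hair expansin gene, gave signals of 76.9 to 199 on these 6 arrays and 9.35 to 47.1 on the 6 leaf arrays of the same bulk. AT4G26010, a root hair peroxidase gene, had root signals of 222 to 303 and leaf signals of 5.85 to 20.2. The antenna gene LHCB4.1 of the light-harvesting complex stood at 2.23 to 38.8 in roots against 1706 to 3510 in leaves.

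Zinc and iron share carriers and chelators in plants, and excess zinc is known to disturb iron uptake in roots. A. thaliana roots short of iron turn on a set of genes through basic helix-loop-helix (bHLH) transcription factors. The set includes enzymes that make and hydroxylate coumarins, which are secreted and bring ferric iron into solution, carriers that place metals in the vacuole, and small IRON MAN peptides that keep the response on. A. halleri also keeps zinc homeostasis genes at high levels, a trait linked to its accumulation of the metal.

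No probe set passed the test for zinc in these roots. Of 22746 probe sets, 0 (0%) had an adjusted p under 0.05 with limma on log2(signal + 16), where the spread was estimated over all 12 root arrays, and the smallest adjusted p was 0.306. At an unadjusted p under 0.05 there were 1531 probe sets (6.73%), of which 690 were higher with zinc (3.03%) and 841 lower (3.7%). The median log2 difference, high zinc minus control, was -0.02 over all probe sets, and 46.7% of the differences were positive. The 3 high-zinc arrays lay above all 3 control arrays in 1087 probe sets (4.78%) and below them in 1371 (6.03%), together 2458 (10.8%), and such probe sets are called separated here. Separated differences of more than 2-fold numbered 70 higher (0.308%) and 37 lower (0.163%). A separated probe set stays separated when an array is left out, so counts of them can then only stay or rise. Without the control array of source name halleri, 0 probe sets passed, with a smallest adjusted p of 0.584 and 1199 at an unadjusted p under 0.05, and 1991 probe sets were separated upward (8.75%) and 2165 downward (9.52%).

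The count of 0 changed with the arrays in the fit. It became 3 when all 24 arrays shared 1 fit. It became 1 without replicate 3 of the high-zinc roots, for the unnamed probe set 259819_at, whose difference was then 2.13 in place of 1.47. It became 10 when dim probe sets were filtered out and replicate 2 of the accumulating control roots was left out, an array that is in neither group compared here, while each of these choices alone gave 0. That combined setting was chosen after the data were seen, and its 10 calls included AT3G12900, AT5G60760 and 2 of the unnamed probe sets given below, 250983_at and 254550_at. The correlation of log2 signals was 0.935 to 0.961 within the control group, 0.937 to 0.954 within the high-zinc group and 0.925 to 0.954 between them. RNA integrity, read from the log2 ratio of the 3' over the 5' probe sets, was 1.41 to 1.67 in the controls and 1.39 to 1.73 with high zinc for GAPDH, and 1.24 to 1.51 and 1.43 to 1.84 for actin.

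**Figure D1:**
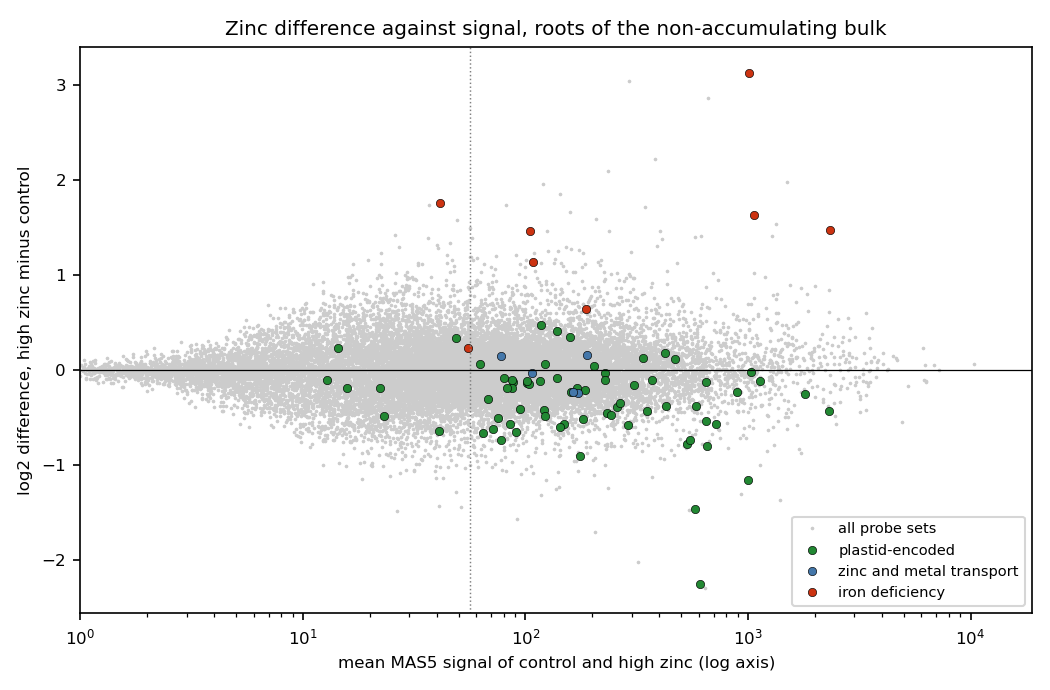
Log2 difference of high zinc minus control (y axis) against the mean MAS5 signal of both groups (x axis, log scale) in non-accumulating roots, with 1 point per probe set and the dotted line at the median root signal of 56.3. The 8 iron deficiency genes sit between 0.24 and 3.13, most plastid-encoded genes below 0, and the 5 zinc and metal transport genes between -0.24 and 0.16.

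Genes of the iron deficiency response had higher signals in high zinc. All 8 named members of the list had a positive difference, with a median of 1.47 and a range of 0.24 to 3.13, and in 7 of them (87.5%, against 4.78% of all probe sets) the high-zinc arrays lay above every control array. None of the 8 passed the test, with adjusted p from 0.508 to 0.906. The list held 32 genes, of which the probe table named these 8, and the others were not analysed here. Earlier results of these data had shown higher signals of several of these genes with zinc, so the list is no independent evidence of its direction.

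The list's coumarin enzymes had separated differences. AT3G12900 encodes the scopoletin hydroxylase that makes fraxetin, the coumarin known to mobilise iron. Its signals were 227, 145 and 140 in the control replicates 1 to 3 and 1700, 3127 and 745 with high zinc. Even the lowest high-zinc array stood far above the highest control, and the log2 difference was 3.13 (SE 0.70, limma adjusted p = 0.523, 3 against 3 arrays). AT3G13610 encodes the feruloyl-CoA hydroxylase that opens the coumarin branch, and AT1G28680 encodes coumarin synthase, a BAHD acyltransferase family member that closes the lactone ring. AT3G13610 gave 1824, 1131 and 792 in controls and 3852, 4247 and 2228 with high zinc, a difference of 1.48 (SE 0.48, limma adjusted p = 0.645). AT1G28680 gave 546, 443 and 375 against 1697, 2671 and 643, a difference of 1.64 (SE 0.50, limma adjusted p = 0.622). In both genes the groups did not overlap, and for all 3 enzymes replicate 3 was the lowest of the high-zinc arrays.

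BGLU42, a beta-glucosidase gene that acts on coumarin glucosides before secretion, gave 163, 133 and 128 in controls and 256, 281 and 166 with high zinc. The groups stood next to each other without overlap, since high-zinc replicate 3 was just above control replicate 1, and the difference was 0.65 (SE 0.20, limma adjusted p = 0.637). AT3G58060, which encodes MTP8, a vacuolar manganese and iron carrier, gave 59.1, 88.0 and 42.0 against 166, 147 and 147. Its 3 high-zinc arrays were close together and above all controls, with a difference of 1.14 (SE 0.34, limma adjusted p = 0.622).

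Regulators in the list were partly dim, so that the pseudocount weighs on their log2 values. BHLH101, a bHLH factor of the iron deficiency response, gave 3.45, 4.1 and 27.7 in controls and 76.9, 65.8 and 70.5 with high zinc. The difference was 1.76 (SE 0.37, limma adjusted p = 0.508). A pseudocount of 1 gave 3.05 and one of 64 gave 0.85, since 2 of the control signals were close to 0. AT1G47400 encodes IMA1, an IRON MAN peptide, and gave 55.9, 19.5 and 78.8 against 196, 155 and 125. These groups did not overlap either, and the difference was 1.47 (SE 0.43, limma adjusted p = 0.622). PYE, a bHLH repressor within the same network, was the exception, with overlapping signals of 61.8, 48.5 and 36.1 against 82.6, 61.2 and 40.0 and a difference of 0.24 (SE 0.24, limma adjusted p = 0.906).

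**Figure D2:**
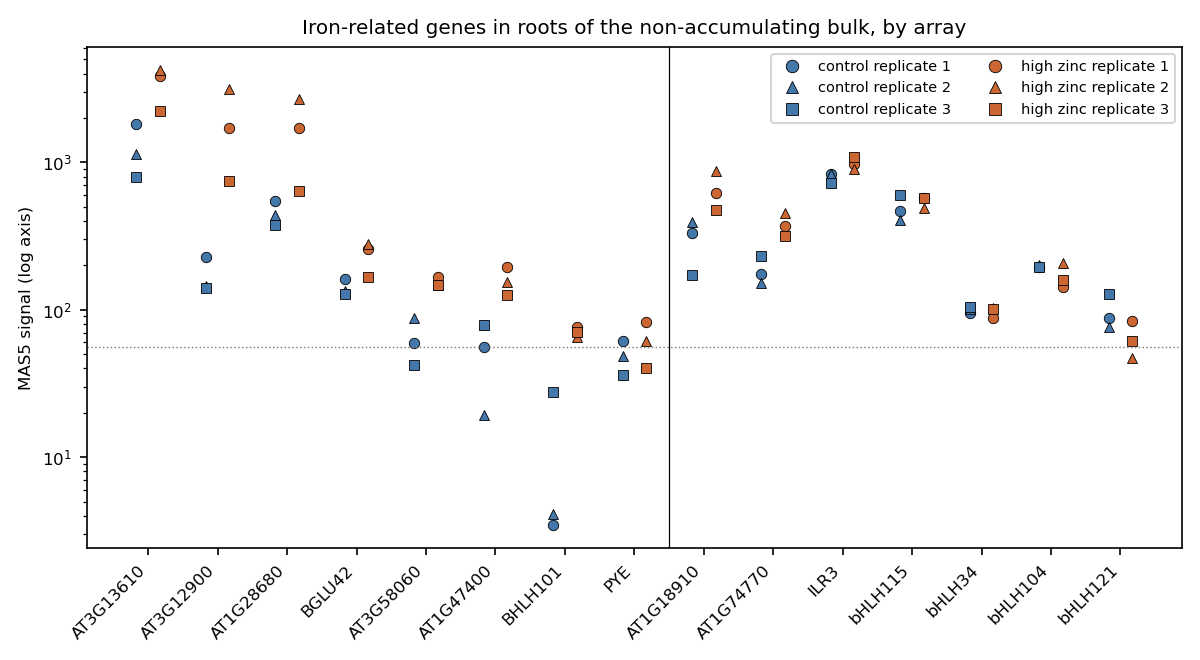
MAS5 signal (y axis, log scale) of 8 iron deficiency genes, left of the vertical line, and 7 upstream iron regulators, right of it, on each of the 6 non-accumulating root arrays, with blue for control, orange for high zinc and the symbol for the replicate number. Orange points lie above all blue points in 7 of the 8 genes on the left and in AT1G18910, AT1G74770 and ILR3 on the right.

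Genes that act upstream of this set were mixed. Of 7 upstream regulators, a list chosen after the data were seen, 4 had a positive and 3 a negative difference, with a median of 0.16, and 3 (42.9%, against 4.78% of all probe sets) were separated with higher signals. These 3 stay separated by definition when an array is left out. Without the array of source name halleri no other of the 7 was separated, beside 8.75% of all probe sets upward and 9.52% downward. AT1G18910 and AT1G74770 encode BTSL2 and BTSL1, root E3 ubiquitin ligases that restrain iron uptake and are themselves known to be induced by iron shortage in A. thaliana. AT1G18910 gave 333, 394 and 173 in controls and 619, 876 and 478 with high zinc, a difference of 1.12 (SE 0.34, limma adjusted p = 0.622). AT1G74770 gave 175, 152 and 232 against 368, 450 and 317, a difference of 0.97 (SE 0.26, limma adjusted p = 0.576). Neither gene had an overlap between the groups. A second probe set of AT1G74770 also differed upward, by 0.68, from control signals of 0.83 to 1.46.

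The bHLH factors that switch the response on showed smaller differences. ILR3 gave 832, 831 and 725 against 978, 903 and 1094, a difference of 0.31 (SE 0.13, limma adjusted p = 0.730), with all high-zinc arrays above the controls. bHLH115 differed by 0.16, bHLH34 by -0.04, bHLH104 by -0.22 and bHLH121 by -0.50, each with overlapping groups and limma adjusted p of 0.737 to 0.983. For bHLH121 the signals were 87.4, 76.5 and 128 in controls and 84.0, 46.8 and 61.7 with high zinc.

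The mean log2 level of the 8 iron deficiency genes was 7.29, 6.97 and 7.04 on the control arrays and 8.74, 8.83 and 8.04 on the high-zinc arrays. The 7 separated genes stay separated and positive by definition when 1 of the 6 arrays is left out. PYE stayed positive and overlapping, at 0.04 to 0.45. The list median was then 1.25 to 1.69, with 87.5% separated upward against 8.26% to 10.9% of all probe sets. Without the array of source name halleri the median was 1.56. In the accumulating roots, 7 of the 8 differences were positive with a median of 0.53, and none was separated (0%, against 4.4% of all probe sets). The level there was 6.98, 8.33 and 7.30 in controls and 7.83, 8.32 and 8.21 with high zinc, so control replicate 2 stood with the high-zinc arrays. AT3G12900 gave 120, 1215 and 169 in those controls and 715, 1282 and 1004 with high zinc.

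Left without that control array, the accumulating roots had 8 positive differences with a median of 0.86, and 4 of the 8 were separated (50%, against 10.9% of all probe sets in that setting). That array was picked for its high level of these genes, so larger differences without it follow in part from the choice. With each of the other accumulating root arrays left out in turn, the median was 0.29 to 0.62. Upward separated genes then numbered 0 to 2 of the 8 (0% to 25%, against 8.58% to 10.6%). Without control replicate 1 there were 2 negative differences, and 1 gene was separated downward (12.5%, against 8.34%). The difference of AT3G12900 in the accumulating roots was 1.65 with control replicate 2 and 2.64 without it, that of AT3G13610 0.78 and 1.41, and that of AT1G28680 0.49 and 1.04. The interaction, the zinc difference of the non-accumulating minus that of the accumulating roots, was 1.48 (SE 1.00) for AT3G12900 with all arrays and 0.49 without that one, and none of the 8 genes passed its test (limma adjusted p = 0.9995 for each). A larger zinc difference of these genes in the non-accumulating roots was therefore not shown by the test. In leaves of the non-accumulating bulk the median of the 8 genes was -0.04. AT1G47400 had the highest value there, with separated signals of 46.1, 45.05 and 203 in controls and 240, 605 and 560 with high zinc, a difference of 2.26 (SE 0.62).

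**Figure D3:**
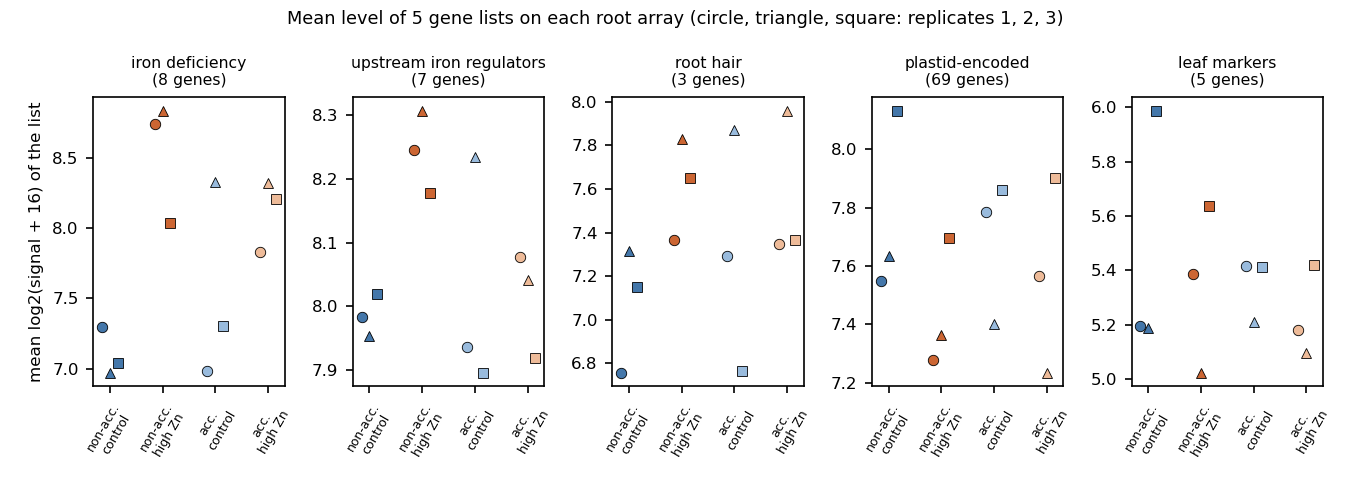
Mean log2(signal + 16) of 5 gene lists (y axis, own scale in each panel) on each of the 12 root arrays by bulk and medium, with circle, triangle and square for replicates 1, 2 and 3. For the iron deficiency list the non-accumulating high-zinc arrays, at 8.04 to 8.83, lie above the controls at 6.97 to 7.29, and replicate 2 of the accumulating controls lies at 8.33.

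The few zinc and metal transport genes that were named differed little, and the others of the list were not analysed here. Of the 37 genes on the zinc and metal transport list 5 were named, with 2 positive and 3 negative differences, a median of -0.03 and 0 separated genes, where 10.8% of all probe sets were separated in either direction. With the array of source name halleri left out, 1 was positive and 4 negative, and again 0 were separated. Without control replicate 2, 1 was separated upward (20%, against 8.26% of all probe sets). Without high-zinc replicate 3, 1 was separated downward (20%, against 16%). ZIP6, a carrier gene of the ZIP family, gave 159, 223 and 153 in controls and 154, 164 and 126 with high zinc. Its groups overlapped, and the difference was -0.23 (SE 0.15, limma adjusted p = 0.823). ZIP9, a zinc carrier gene induced by zinc shortage in A. thaliana, gave 130, 108 and 89.5 against 121, 86.7 and 109, a difference of -0.03 (SE 0.31, limma adjusted p = 0.992). bZIP19, the transcription factor that senses zinc and turns on such carriers, gave 133, 191 and 207 against 153, 271 and 180, a difference of 0.16 (SE 0.21, limma adjusted p = 0.935).

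The vesicular manganese carrier gene MTP11 differed by -0.24 (SE 0.15), and AT2G04620, which encodes MTP12, a partner of zinc carriers in the Golgi, by 0.14 (SE 0.19). The signs of ZIP9, bZIP19 and AT2G04620 turned when single arrays were left out. Of the metal-binding genes 2 of 14 were named. MT1C, a metallothionein gene, gave 544, 477 and 374 against 874, 815 and 396, a difference of 0.50 (SE 0.32, limma adjusted p = 0.823). CCS, the copper chaperone gene of superoxide dismutase, gave 178, 242 and 133 against 148, 103 and 95.5, a difference of -0.59 (SE 0.34, limma adjusted p = 0.806). Both pairs of groups overlapped. No gene of the iron storage list was named in the probe table, and ferritins were not analysed here.

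Among all probe sets, the smallest adjusted p belonged to WRKY42, a transcription factor gene known in A. thaliana for phosphate uptake. It gave 10.0, 5.26 and 10.3 in controls and 67.8, 70.3 and 58.1 with high zinc, and both groups were tight and far apart. The difference was 1.73 (SE 0.27, limma adjusted p = 0.306). Because the control signals were far below the median root signal of 56.3, it ranged from 0.83 with a pseudocount of 64 to 2.84 with one of 1. WRKY22, a factor of the defence response, gave 89.0, 74.1 and 114 against 196, 175 and 164, a difference of 0.85 (SE 0.19, limma adjusted p = 0.523), again with no overlap. WRKY6, the other phosphate-related member, overlapped at 9.24, 31.8 and 35.6 against 32.7, 44.0 and 76.2 and differed by 0.70 (SE 0.31), or by 0.38 without control replicate 1. WRKY47 was lower, with 134, 123 and 105 against 87.3, 68.8 and 103, a difference of -0.42 (SE 0.19, limma adjusted p = 0.735). Of the 6 named WRKY genes 4 were higher and 2 lower, with 2 separated upward (33.3%, against 4.78% of all probe sets) and 1 downward (16.7%, against 6.03%). These counts were 3 and 1 without the array of source name halleri, against 8.75% and 9.52% of all probe sets.

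Genes below were named because they had the largest separated differences among 380 higher and 427 lower probe sets with 1 gene and a group mean above the median signal. Their separation is part of that choice and supports nothing further. After AT3G12900, the higher genes outside the iron list were AT3G61930, with 67.4, 51.9 and 24.1 in controls and 251, 378 and 85.2 with high zinc (1.85, SE 0.70), WRKY42, AT1G53620 and genes with differences of 1.23 to 1.4. AT1G53620 gave 8.86, 15.6 and 26.5 against 102, 60.2 and 83.4, a difference of 1.58 (SE 0.36). SWEET2 encodes a vacuolar sugar carrier known to limit sugar loss from A. thaliana roots. Its signals of 90.2, 74.7 and 93.4 in controls and 188, 277 and 236 with high zinc gave a difference of 1.28 (SE 0.38, limma adjusted p = 0.622). Of the 14 named SWEET genes 7 were higher and 7 lower, and SWEET2 was the only separated one (7.14%, against 4.78% of all probe sets separated upward). Without the array of source name halleri 2 were separated upward (14.3%, against 8.75%).

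AT4G20860, a berberine bridge enzyme-like oxidase gene, differed by 1.34 (SE 0.36), AT1G06000, a flavonol rhamnosyltransferase gene, by 1.29 (SE 0.46), and AT1G51860, a leucine-rich repeat receptor kinase gene, by 1.23 (SE 0.31). AT1G36320 differed by 1.31 (SE 0.50), AT3G50900 by 1.4 (SE 0.27) and AT1G10340 by 1.4 (SE 0.34). Control signals of these 6 genes were at most 34.1, except for AT1G51860 with 36.7 to 76.4, so that their log2 values depend on the pseudocount. Among probe sets with no gene in the table, 250983_at gave 57.8, 53.4 and 34.4 against 604, 663 and 330 (3.05, SE 0.71, limma adjusted p = 0.523). The unnamed probe set 254550_at gave 281, 92.1 and 100.2 against 856, 1635 and 999 (2.87, SE 0.75, limma adjusted p = 0.572). Both differences were near that of AT3G12900 in size, and in the accumulating controls both were again highest in replicate 2, at 503 and 1347.

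**Figure D4:**
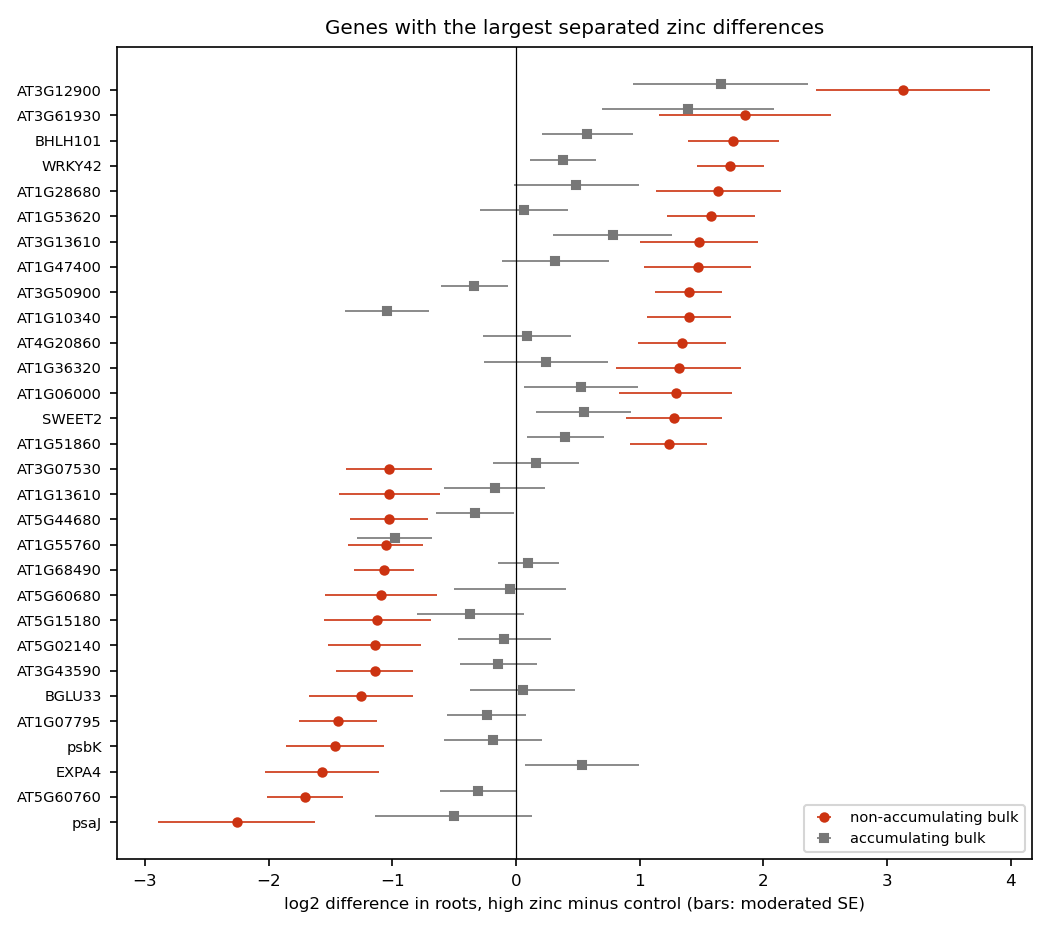
Log2 difference of high zinc minus control (x axis, bars of 1 moderated SE) for the 15 largest separated differences in each direction, in roots of the non-accumulating bulk (red circles) and of the accumulating bulk (grey squares), 3 arrays per group. The genes were chosen on the red values, which run from -2.26 to 3.13, and the grey values run from -1.04 to 1.65.

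Class III peroxidases, secreted enzymes that cross-link cell walls and handle peroxide, did not shift as a family. Of 73 known members 54 were named, 27 higher and 27 lower, with a median of -0.01. Separated members numbered 6 upward (11.1%) and 3 downward (5.56%), against 4.78% and 6.03% of all probe sets. They numbered 10 (18.5%, against 8.75%) and 4 (7.41%, against 9.52%) without the array of source name halleri. AT1G30870 gave 31.8, 32.3 and 39.6 in controls and 90.2, 126 and 70.9 with high zinc, a difference of 1.12 (SE 0.20, limma adjusted p = 0.371). AT5G39580 gave 164, 193 and 203 against 391, 468 and 327, a difference of 1.01 (SE 0.38, limma adjusted p = 0.696), and AT1G49570 differed by 0.74 (SE 0.24). In the other direction AT5G15180 gave 604, 608 and 313 against 117, 274 and 303, a difference of -1.12 (SE 0.43, limma adjusted p = 0.705), where control replicate 3 was only just above the high-zinc arrays, and -0.73 without high-zinc replicate 1.

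Cell wall loosening genes went both ways. Of 23 named xyloglucan enzyme and expansin genes 10 were higher and 13 lower, with a median of -0.12 and 1 separated in each direction (4.35%, against 4.78% of all probe sets upward and 6.03% downward). Without the array of source name halleri 2 were separated upward (8.7%, against 8.75%) and 3 downward (13%, against 9.52%). EXPA4, an expansin gene, was the separated lower one, with 132, 128 and 160 in controls and 8.04, 59.7 and 62.5 with high zinc, a difference of -1.57 (SE 0.46, limma adjusted p = 0.622). High-zinc replicate 1 was far below the others, and the difference was -1.01 without it. EXPA18, the root hair gene, was the separated higher one, with 76.9, 134 and 81.7 against 161, 199 and 159, a difference of 0.77 (SE 0.28, limma adjusted p = 0.689). EXPA7, the other root hair expansin, overlapped narrowly at 40.8, 68.6 and 85.3 against 83.0, 179 and 140 and differed by 0.88 (SE 0.40). AT4G26010, the third named root hair gene of 15 in the list, gave 222, 303 and 274 against 240, 264 and 280 and differed by -0.02 (SE 0.23). The median of these 3 root hair genes was 0.77, 1 of them was separated upward (33.3%, against 4.78% of all probe sets), and none passed the test. Their mean log2 level was 6.75, 7.32 and 7.15 in the controls and 7.37, 7.83 and 7.65 with high zinc, so the lowest high-zinc array stood just above the highest control. XTH19 and XTH26 had differences of 0.90 and 0.83 with overlapping groups, and that of XTH19 was 0.46 without high-zinc replicate 2.

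Lower signals in high zinc were led, among nuclear genes, by AT5G60760, a gene for a P-loop nucleoside triphosphatase. It gave 430, 277 and 260 in controls and 81.2, 60.3 and 123 with high zinc, a clear gap, and the difference was -1.71 (SE 0.31, limma adjusted p = 0.371). This difference had an adjusted p of 0.0249 when all 24 arrays shared 1 fit. AT1G68490 gave 246, 277 and 196 against 80.0, 119 and 121, a difference of -1.07 (SE 0.25, limma adjusted p = 0.523). BGLU33, a beta-glucosidase gene, gave 197, 244 and 155 against 92.6, 88.7 and 46.1, a difference of -1.25 (SE 0.42, limma adjusted p = 0.645). AT1G07795, with 87.4, 92.3 and 66.7 against 22.5, 16.8 and 20.8, differed by -1.44 (SE 0.32, limma adjusted p = 0.523). In each of these genes the high-zinc arrays were well below the controls.

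The remaining lower genes of the 15 had differences between -1.14 and -1.02. They were AT3G43590, a CCHC zinc knuckle protein gene, AT5G02140, a thaumatin-like protein gene, AT5G44680, a DNA glycosylase gene, AT1G55760, a BTB domain protein gene, AT5G60680, AT1G13610 and AT3G07530. AT1G55760 was also separated and lower in the accumulating roots, with -0.98 beside -1.05 (SE 0.30). AUR1, an Aurora kinase gene of dividing cells and the 1 named gene of 12 on the meristem list, gave 251, 235 and 207 in controls and 143, 146 and 166 with high zinc. The groups did not overlap, and the difference was -0.56 (SE 0.16, limma adjusted p = 0.608) beside -0.57 in the accumulating roots and -0.34 in the leaves. Among unnamed probe sets 262546_at differed by -1.47 and 256098_at by -1.43.

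Plastid-encoded genes mostly had lower signals in high zinc. The root plastid genome is transcribed at low levels without photosynthesis, and its genes encode photosystem and electron transport subunits, ribosomal proteins and a polymerase. Of 69 named plastid-encoded genes 58 had a negative and 11 a positive difference, with a median of -0.23, and 13 (18.8%, against 6.03% of all probe sets) were separated with lower signals and 0 with higher. This list was chosen after the data were seen, and no member passed the test. These RNAs are transcribed and processed together and lack the long poly(A) tails of nuclear messengers, so the 69 values are not independent.

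The largest differences were those of psaJ and psbK. psaJ, for a small subunit of photosystem I, gave 758, 896 and 1272 in controls and 108, 112 and 503 with high zinc. Replicates 1 and 2 with high zinc were far below replicate 3, which was still below the controls, and the difference was -2.26 (SE 0.63, limma adjusted p = 0.608). psbK, for a small subunit of photosystem II, gave 516, 851 and 1231 against 238, 264 and 368, a difference of -1.47 (SE 0.40, limma adjusted p = 0.572). petB and petG, for subunits of the cytochrome b6f complex, differed by -1.16 (SE 0.61) and -0.90 (SE 0.43) with overlapping groups. Leaving out 1 array at a time gave -1.76 to -0.75 for petB and -1.19 to -0.60 for petG. By class, the median was -0.62 over 5 photosystem I genes, -0.42 over 15 photosystem II genes, -0.43 over 6 cytochrome b6f genes and -0.33 over 6 ATP synthase genes, all 6 of them negative. It was -0.30 over 15 ribosomal protein genes, -0.14 over 10 genes of the NDH complex, -0.08 over 4 RNA polymerase genes and -0.39 over the 8 others, all 8 of them negative. Of the 13 separated lower genes (18.8%, against 6.03% of all probe sets) 5 were ribosomal protein genes and 3 were of photosystem II. Photosystem I, cytochrome b6f and ATP synthase had 1 each, and the others 2.

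**Figure D5:**
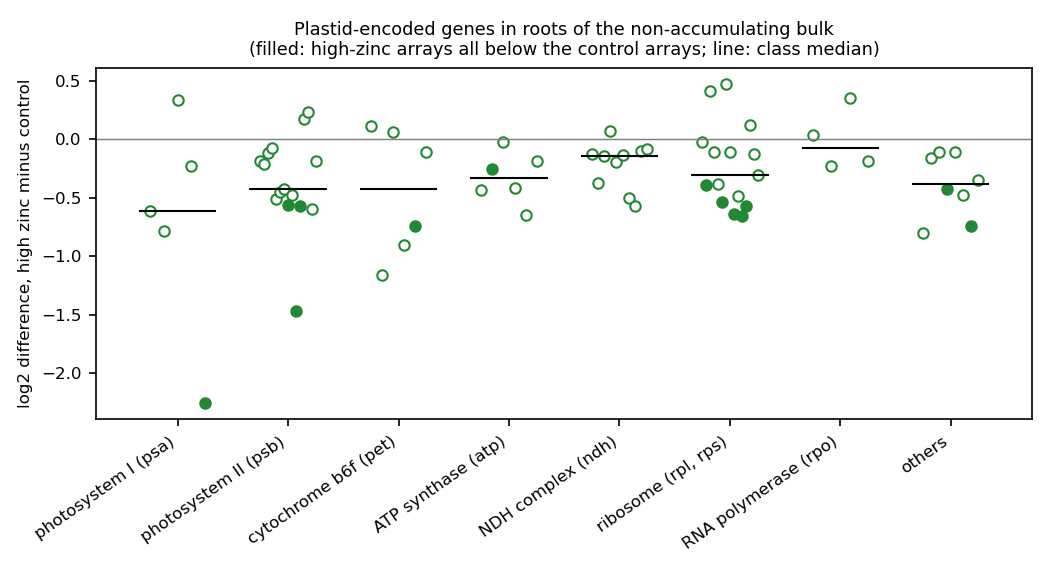
Log2 difference of high zinc minus control (y axis) for 69 plastid-encoded genes by class (x axis) in non-accumulating roots, with 1 circle per gene, filled where the 3 high-zinc arrays lie below the 3 controls, and a bar at the class median. The class medians lie between -0.62 for photosystem I and -0.08 for RNA polymerase, and psaJ is the lowest point at -2.26.

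The size of the plastid difference changed with the arrays used. The mean log2 level of the 69 genes was 7.55, 7.63 and 8.13 in the controls and 7.28, 7.36 and 7.69 with high zinc. The groups overlapped, and replicate 3 was the highest in each. At each replicate number the high-zinc array was below the control array, and pairing by number was not tested. Without control replicate 3 the median was -0.08, with 44 genes negative and 25 positive, with 15 genes separated downward (21.7%, against 11.9% of all probe sets in that setting) and 6 upward (8.7%, against 10.2%). Without the array of source name halleri it was -0.40 with 60 negative, and 22 genes were separated downward (31.9%, against 9.52%). Without high-zinc replicate 3 it was -0.38, with 34 genes separated downward (49.3%, against 16%) and 3 upward (4.35%, against 10.9%). In accumulating roots the median was -0.11 with 50 negative differences, and 4 genes were separated downward (5.8%, against 4.03%). That median was 0.03 with 27 negative differences without high-zinc replicate 2 of the accumulating roots, where 4 genes were separated downward (5.8%, against 8.86%). Without their high-zinc replicate 3 it was -0.28 with 61 negative, and 13 genes were separated downward (18.8%, against 8.74%). The 5 named nuclear leaf markers had a mean log2 level of 5.19, 5.19 and 5.99 in the controls and 5.39, 5.02 and 5.64 with high zinc, again with replicate 3 highest in both groups. Of these markers 3 were higher and 2 lower, with a median of 0.04 and a largest difference of -0.59 (SE 0.37). LHCB4.1 and RCA, the Rubisco activase gene, differed by -0.26 (SE 0.36) and 0.23 (SE 0.39). The median was that of a member whose mean signals, 3.07 in controls and 3.59 with high zinc, were below the pseudocount of 16. Without the array of source name halleri the marker median was -0.24, with 1 higher and 4 lower. Without control replicate 3 the marker median was 0.19, with 4 higher and 1 lower. The part of leaf or green tissue in the plastid values was not tested beyond these figures. The 16 named mitochondrion-encoded genes had a median of -0.03, with 6 higher and 10 lower.

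Most hormone, stress and secondary metabolism lists held members on both sides of 0. Of 47 UDP-glycosyltransferase genes 19 were higher and 28 lower, with 5 separated upward (10.6%, against 4.78% of all probe sets) and 4 downward (8.51%, against 6.03%). Without the array of source name halleri these were 7 (14.9%, against 8.75%) and 10 (21.3%, against 9.52%). Of 24 cytochrome P450 genes 12 were higher and 12 lower, with 2 separated upward (8.33%, against 4.78%) and 4 downward (16.7%, against 6.03%). Of 13 glutathione transferase genes 5 were higher and 8 lower, with 1 separated upward (7.69%, against 4.78%) and 0 downward (0%, against 6.03%). In the latter family GSTF4 gave 572, 500.5 and 255 in controls and 256, 236 and 189 with high zinc, with an overlap at control replicate 3, and differed by -0.85 (SE 0.28, limma adjusted p = 0.645). GH3.3, a gene for an auxin-conjugating enzyme, was separated and higher by 0.83 (SE 0.27), but from control signals of 3.83 to 14.6. PDF1.2b, a defensin gene, gave 71.7, 42.3 and 120 against 25.6, 23.2 and 49.3 and differed by -0.90 (SE 0.33, limma adjusted p = 0.689) with overlapping groups, or by -0.59 without control replicate 3. STZ, a zinc finger repressor gene of rapid stress responses, gave 88.0, 150.1 and 296 against 160, 122 and 1000. Only high-zinc replicate 3 was above the controls, and the difference of 0.73 (SE 0.79) was -0.17 without that array. The 4 named sulfate assimilation genes had a median of 0.02, the 4 of abscisic acid and dehydration -0.06 and the 5 of ER bodies and glucosinolates 0.07. All 3 auxin genes, 4 of 5 histone genes and both flavonoid genes had positive differences, with medians of 0.32, 0.28 and 0.07.

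The test of whether the zinc difference of the non-accumulating roots differed from that of the accumulating roots also passed 0 of 22746 probe sets (0%), with a smallest adjusted p of 0.351 and 884 at an unadjusted p under 0.05 (3.89%). The zinc comparison in the accumulating roots had 0 calls (0%) and 768 at an unadjusted p under 0.05 (3.38%). Its separated differences of more than 2-fold were 5 upward (0.022%) and 18 downward (0.0791%), beside 70 and 37 in the non-accumulating roots, and no test was made between these counts. Genes named for their interaction were chosen for separation in the non-accumulating roots and for a large interaction value. A contrast between the bulks is therefore part of that choice and supports nothing further. The largest interaction among these separated genes was that of AT1G10340, at 2.44 (SE 0.48, limma adjusted p = 0.9995). It gave 33.0, 34.1 and 8.27 in non-accumulating controls and 69.8, 72.2 and 128 with high zinc, and 62.7, 61.3 and 44.1 against 9.16, 34.2 and 17.2 in the accumulating bulk, so the groups were separated in opposite directions. AT3G50900 followed with 1.73 (SE 0.38), AT5G18350, a disease resistance gene of the TIR type, with 1.64 (SE 0.51), and AT1G53620 and AT1G62840 with 1.52 each.

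In the negative direction EXPA4 had -2.11 (SE 0.65), psaJ -1.75 (SE 0.90), AT2G43210 -1.45 (SE 0.40), AT5G60760 -1.40 (SE 0.43) and AT1G32190 -1.32 (SE 0.39). Each of these interaction values had a limma adjusted p of 0.9995. Accumulating controls of EXPA4 gave 132, 47.1 and 137 and the high-zinc arrays 126, 230 and 108, which overlapped. The non-accumulating arrays were separated, as the choice of these genes required. In leaves of the non-accumulating bulk 0 of 22746 probe sets passed (0%), with 956 at an unadjusted p under 0.05 (4.2%). The leaf differences of AT3G12900, WRKY42 and psaJ, 3 genes with large root differences, were -0.46 (SE 0.25), -0.28 (SE 0.45) and -0.27 (SE 0.31).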

How the data were processed

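The authors deposited linear MAS5 signal intensity values for 22810 probe sets, per the submitters' processing notes. The 2% trimmed mean of each of these 6 arrays was 100.0, so the deposited scaling was kept. None of the sources used here gave detection calls, the MAS5 version or its target. Here 64 control probe sets were left out and 22746 were tested on log2(signal + 16) with limma (version 3.58.1, R version 4.3.3), fitting the 12 root arrays with group means, a variance trend and Benjamini-Hochberg adjustment at 0.05. Leaves were fitted separately. Precision is set by the number of arrays, since signals carry no counts.

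The probe table gave 1 gene for 13513 probe sets, several for 503 and none for 8730. The members and 38 gene lists (30 written first, 20 of them with a named gene, and 8 added after the data were seen) were chosen with earlier results of these data known. Named genes were the 15 largest separated differences in each direction above the median root signal of 56.3, every iron and metal member, up to 4 members of each other list, 5 interactions in each direction and 2 unnamed probe sets in each direction. The alternatives were pseudocounts of 1 and 64, 2 filters, quantile normalization, median centring, plain probe sets, no trend, array weights, a replicate block, other sets of arrays, and each array left out.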

Additional observations from a re-analysis of the deposited data

How the results depend on the processing

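Of 26 alternatives to the zinc comparison, 22 kept a count of 0 probe sets past the threshold. With all 24 arrays in 1 fit the count was 3, which were AT2G33710, an ethylene response factor gene (1.42, adjusted p = 0.00978), AT5G61260 (0.91, adjusted p = 0.0172) and AT5G60760 (-1.71, adjusted p = 0.0249), and the interaction count was 1, AT5G61260 (1.27, adjusted p = 0.0387). Leaving out 1 array at a time gave counts of 0 to 1, where the 1 was 259819_at (2.13, adjusted p = 0.0239) without replicate 3 of the high-zinc roots, and interaction counts of 0. Settings chosen after seeing the data gave 2 without both replicate 3 arrays (259819_at and 246847_at), and 10, of which 8 higher, with the filter and without replicate 2 of the accumulating controls. For the last, AT3G12900 had an adjusted p of 0.0261 beside 0.523. The cause was not tested. When 1 array at a time was left out, probe sets at an unadjusted p under 0.05 numbered 1199 without control replicate 1 to 2149 without high-zinc replicate 3, and for the interaction 728 to 1185. With all 24 arrays in 1 fit they numbered 1128 and 654. The filters tested 12628 and 11491 probe sets, with 1021 and 930 at that level and 468 and 413 for the interaction. These counts are out of fewer probe sets than the 1531 and 884 of 22746, so they do not compare directly. The interaction had 395 with the filter and without replicate 2 of the accumulating controls, and 1368 without both replicate 3 arrays.

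Deviations of arrays of the same replicate number correlated at 0.05, 0.25 and 0.24. Deviations of unlike numbers were not compared, so pairing was not tested, and the main fit took no pairs. Control replicate 3 correlated at 0.948 with high-zinc replicate 3 and at 0.939 and 0.935 with the other controls. Control replicates 1 and 2 correlated at 0.961 with each other and at 0.945 and 0.954 with the high-zinc arrays of their number. With the replicate block the counts were 0 and 0, with 1796 and 1045 at an unadjusted p under 0.05.

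Of 80 differences of named genes and probe sets, 27 moved by more than 1.5 times or changed sign when 1 of the 6 arrays was left out, 10 of them without the array of source name halleri, and none of the 27 had passed the test. Signs turned for 8. Leaving out 1 array at a time gave -0.15 to 0.083 for ZIP9 (0.082 without control replicate 1, 0.083 without high-zinc replicate 2), -0.063 to 0.32 for bZIP19 (-0.019 and -0.063 without the same arrays) and -0.020 to 0.30 for AT2G04620 (without control replicate 1). It gave -0.13 to 0.075 for AT4G26010 (0.075, 0.0074 and 0.039 without control replicates 2 and 3 and high-zinc replicate 1), which was 0.0022 with median centring. The range was -0.50 to 0.19 for LHCB4.1 (without control replicate 3), -0.24 to 0.72 for RCA (without control replicate 1), -0.17 to 1.27 for STZ (without high-zinc replicate 3) and -0.071 to 0.023 for bHLH34 (without high-zinc replicate 1). No other probe set of a gene named in the text changed sign. The iron deficiency median was 0.91 with a pseudocount of 64 and 1.25 to 1.70 in the others. Precision is limited by 3 arrays per group, by dim control signals of several named genes and by the 8730 probe sets without a gene.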
